A study of Oryza sativa Japonica Group with 8 samples.

Results

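Milk grains of rice (the japonica subspecies of Oryza sativa) were compared with flag leaves sampled after flowering, through the poly(A) RNA of 1 library each. The grain at the milk stage is a sink, an organ that takes in sugars and amino acids, and the flag leaf, the uppermost leaf below the panicle, is the source that exports much of them. Loci were chosen by level alone: 15628 of the 31187 loci in the deposited table had 5 FPKM or more (a count of fragments scaled to transcript length and to all mapped fragments) in the higher of these libraries. They are called tested loci below, although with 1 library per group no statistical test was possible, no replicate error exists, and no p-value is given.

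The plants were grown in a greenhouse, and no genotype beyond the subspecies, no treatment and no age in days is given for them. This holds for both groups alike. The leaf sample mixed several stages later than the day of flowering, so its values are an average over that period. For the grain, the labels name the milk stage only; they give neither the number of plants nor any separation of embryo, endosperm and outer layers. The series also holds flower buds, flowers, leaves and roots before flowering, a library labelled roots after flowering, and mature seeds, 8 libraries with 1 per group. The values of the library labelled roots after flowering went against its label. Loci high in the leaf had nearly the same level in it as in leaves after flowering. No call from the deposited values rests on it, but the scalings were computed over all 8 libraries, this one included.

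In cereals, sucrose made in leaves reaches the grain through the phloem and is turned there into starch, mainly in the endosperm, which also lays down storage proteins such as the glutelins and prolamins of rice. Leaves hold instead the RNA for photosynthesis: the small subunit of Rubisco, chlorophyll-binding proteins and the enzymes that fix carbon. After flowering, flag leaves go on with photosynthesis and later break down their own proteins, and the nitrogen released is moved to the grain. None of these gene groups can be followed by name here. The table pairs its assembly identifiers with positions on the MSU Rice Genome Annotation Project Release 7, and 0 of them were found in the available RefSeq gene table, which is of a different assembly. The tissue labels could therefore not be checked against marker genes, and loci are described by level, by the other libraries and by position. No sequence is shown, since no genome of the files' build was at hand.

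The grain and the leaf differed at 5961 of the tested loci by at least 4-fold, on the scale log2((FPKM + 1)/(FPKM + 1)), which understates the change of low loci. As deposited, 1830 loci (11.7%) were higher in milk grains and 4131 (26.4%) were higher in leaves after flowering, while 9667 (61.9%) were neither. Both libraries had at least 5 FPKM at 8090 loci (51.8%). Another 5215 loci reached that level in the leaf only and 2323 in the grain only. The level limit itself made little difference near its edge. Among 1016 loci with 5 to 6 FPKM in the higher library the median log2 ratio was -0.53, and among 1176 loci with 4 to 5 FPKM, just outside the limit, it was -0.49.

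The excess of loci on the leaf side depended in part on the scaling. The median log2 ratio of grain over leaf was -0.63 in the deposited values and -0.06 after median-of-ratios scaling. This divides each library by the median ratio of 13228 broadly expressed loci to their mean over all 8 libraries. That scaling set the counts at 2452 loci higher in milk grains (15.5% of 15815) and 3371 higher in leaves (21.3%). Of all loci called, the grain then had 42.1% in place of 30.7%. All 1830 grain loci kept their call and 622 were added, and the 3371 leaf loci were all among the 4131. Few loci were level between the organs under either scaling. As deposited, 3029 loci (19.4%) had a log2 ratio within 0.5 of 0, and 3188 (20.2%) after scaling.

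**Figure D1:**
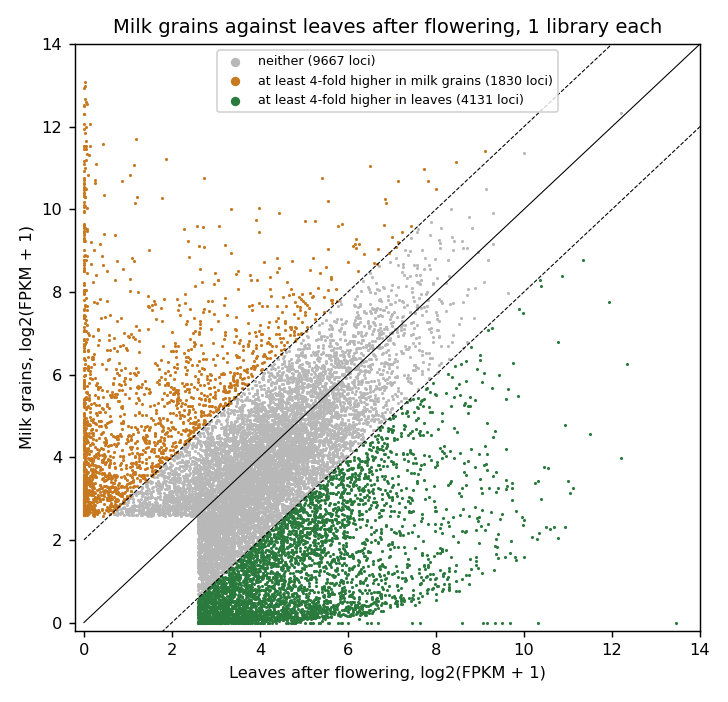
Level of each of the 15628 tested loci in milk grains (vertical axis) and in leaves after flowering (horizontal axis), both as log2(FPKM + 1), with 1 library each; the solid line marks equal levels and the dashed lines a 4-fold difference. Of the 1830 loci higher in milk grains, 1639 lie above 0 in the leaf and 995 (54.4%) are under 1 FPKM there. Of the 4131 loci higher in leaves, 4011 lie above 0 in the grain and 2120 (51.3%) are under 1 FPKM there.

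**Figure D2:**
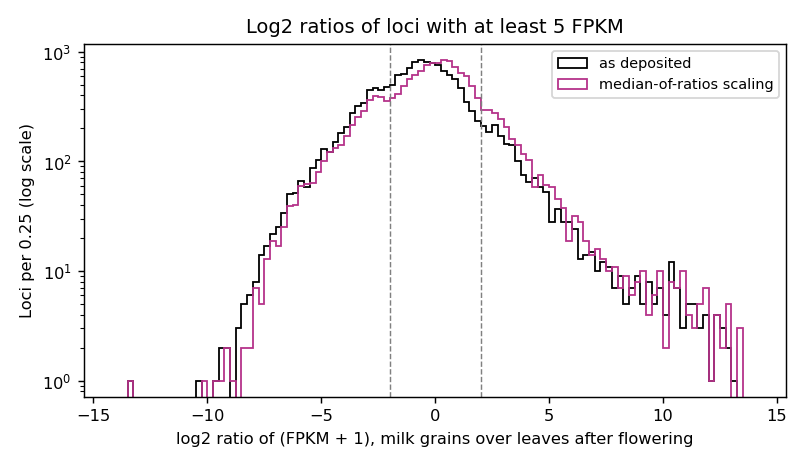
Number of tested loci (log scale) by log2 ratio of milk grains over leaves after flowering, in steps of 0.25, from the deposited values and after median-of-ratios scaling, with dashed lines at 4-fold. The median moves from -0.63 to -0.06 with the scaling, and the sides hold 1830 and 4131 loci past the lines as deposited, against 2452 and 3371 after scaling.

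Loci that were at least 4-fold lower in the other organ held a large part of the summed FPKM of each. Loci higher in milk grains took 55.4% of the summed FPKM of the grain and 1.84% of that of the leaf. Loci higher in leaves took 52.6% of the summed FPKM of the leaf and 2.57% of that of the grain. After median-of-ratios scaling these own-organ shares were 59.8% in the grain and 47.1% in the leaf. The concentration was stronger in the grain, where the 10 most abundant loci held 10.9% of the sum and the 100 most abundant held 37.7%. In leaves after flowering these shares were 7.19% and 20.7%.

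Of the 100 most abundant grain loci, 93 were at least 4-fold higher than in leaves, and 61 had under 1 FPKM there. Of the 100 most abundant leaf loci, 91 were at least 4-fold higher than in the grain, and 7 had under 1 FPKM there, all of them listed at exactly 0. Of the 61 grain loci, 22 were listed at 0. The median level of the grain list in leaves was 0.0498 FPKM, against 8.75 FPKM for the leaf list in the grain. Only 5 loci stood in both lists of 100. The single locus that was among the 10 most abundant of both was XLOC_030729 (chromosome 3, 26459839 to 26461279), singled out after its values were seen. It had 5185 FPKM in milk grains and 4746 in leaves after flowering, and between 2615 FPKM in roots before flowering and 4321 in flower buds in the other 6 libraries.

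The share of loci that differed rose with their level in both organs. Of 3354 loci with 5 to 10 FPKM in milk grains, 386 (11.5%, 95% Wilson interval 10.5 to 12.6) were at least 4-fold higher there. The share was 14.5% of 5406 loci at 10 to 50 FPKM, 32.0% of 1273 at 50 to 200 FPKM and 58.7% of 298 at 200 to 1000 FPKM. At 1000 FPKM and over it was 95.1% of 82 loci (88.1 to 98.1). Leaves after flowering showed the same course, from 23.3% of 3809 loci in the lowest band to 70.8% of 346 at 200 to 1000 FPKM and 94.1% of 34 loci (80.9 to 98.4) in the top band. These intervals are over loci, which are not replicates, and cover counting of loci only. A locus banded by a high value in one library is favoured to be lower in the other.

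The top bands of the organs differed in what the other organ held. The 82 grain loci at 1000 FPKM and over had a median of 0.0325 FPKM in leaves, where 56 of them (68.3%) were under 1 FPKM. The 34 leaf loci at that level had a median of 9.56 FPKM in the grain, where 2 (5.88%) were under 1 FPKM, both listed at exactly 0.

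**Figure D3:**
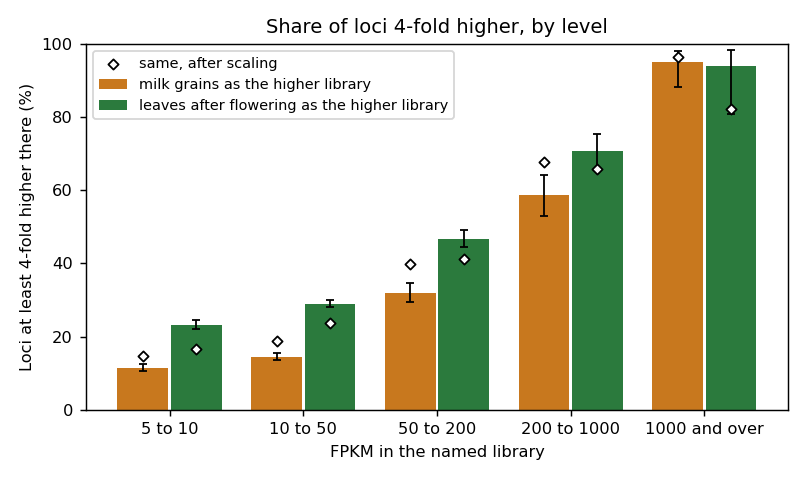
Share of loci (percent) at least 4-fold higher in the named library than in the other one, by their FPKM in the named library; bars give the values as deposited, lines 95% Wilson intervals over loci, and diamonds the share after median-of-ratios scaling. In both organs the share rises from the lowest to the highest band, to 95.1% in milk grains and 94.1% in leaves after flowering.

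Among loci above 0 in both libraries, the largest differences were on the grain side. Folds are given for loci above 0 in both libraries, since an exact 0 in this table also occurs at loci that are abundant elsewhere. Among 1639 such loci higher in milk grains, 477 (29.1%) differed by at least 16-fold and 156 (9.52%) by at least 64-fold. A log2 ratio of at least 8 was reached by 71 of them (4.33%), and of at least 10 by 36. Among 4011 such loci higher in leaves, 1096 (27.3%) differed by at least 16-fold and 231 (5.76%) by at least 64-fold. A log2 ratio of 8 in size was reached by 13 of these (0.324%), and of 10 by 0. The middle of the distributions was alike, with a median size of 3.13 on the log2 scale for the grain loci and 3.15 for the leaf loci. A further 191 grain loci were listed at 0 in leaves after flowering, with up to 5902 FPKM in the grain. They held 10.7% of the summed FPKM of milk grains, and 18 of them had 1000 FPKM or more. In the other direction 120 leaf loci were listed at 0 in the grain and held 3.19% of the summed FPKM of the leaf. Most of that came from the most abundant locus of the leaf library, with 11271 FPKM in leaves after flowering. It lies in a span on chromosome 2 (4870141 to 4874082) shared with 1 other locus, and had between 706.6 and 3143 FPKM in the 6 libraries other than the leaf and the grain.

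How far an abundant locus fell in the other organ was examined after the values were seen, over loci with at least 200 FPKM in one library and at least 4-fold less, on the FPKM scale without an added 1, in the other. Loci listed at 0 in the other library were left out of the shares. Of 278 such leaf loci, 8 were listed at 0 in milk grains. Of the 270 above 0, none had under 0.1% of its leaf level there, and the lowest had 0.18%. Of 253 such grain loci, 40 were listed at 0 in leaves after flowering. Of the 213 above 0, 73 (34.3%) had under 0.1% of their grain level and 49 under 0.01%. For the same kind of leaf loci the lowest share was 0.0538% in roots before flowering, where 7 of 178 were under 0.1%, and 0.00495% in flower buds, where 21 of 140 were. Mature seeds were close to the milk grain, with 2 of 189 under 0.1% and a lowest share of 0.0754%, and in leaves before flowering none of 54 was under 0.1%. In flowers 12 of 123 were under 0.1%, and in the library labelled roots after flowering none of 2 was. Apart from that labelled library, the milk grain was thus the only library of another organ with none. Mature seeds came next, and the cause was not tested. In whole organs, fewer cells that express a locus and less RNA per cell cannot be told apart.

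Pairs of loci in each direction show what these groups look like. XLOC_055807 (chromosome 7, 6613130 to 6613762) had the largest ratio on the grain side and was also the most abundant locus of milk grains. It reached 8606 FPKM in the milk grain and 0.0173 in leaves after flowering, a log2 ratio of 13.05. Its level in mature seeds was 9554 FPKM, and no other library exceeded 0.284 FPKM. The next most abundant, XLOC_055776 (chromosome 7, 6276076 to 6276821), had 8139 FPKM in milk grains, 2046 at maturity and 0.0233 in leaves after flowering. Roots before flowering had 0.174 FPKM of it, the highest of the remaining libraries. Both loci thus had their high values in the grain libraries alone, at one level in the first case and falling towards maturity in the second.

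On the leaf side, loci listed at 0 in the grain or sharing a span were left out. The largest ratio among the others was at XLOC_018761 (chromosome 12, 20042244 to 20043114), with a log2 ratio of -8.72. It had 1739 FPKM in leaves after flowering and 3.14 in milk grains. Leaves before flowering had 1782 FPKM of it and the library labelled roots after flowering 2775, while mature seeds had 21.8, roots before flowering 9.88, flower buds 1.77 and flowers 1.13. This locus was a leaf locus at both stages. The most abundant leaf locus with a position of its own and a value above 0 in both libraries, XLOC_004301 (chromosome 1, 11202594 to 11203335), was different. It had 5173 FPKM in leaves after flowering and 75.8 in milk grains, a log2 ratio of -6.07, but was listed at 0 in leaves before flowering and in the library labelled roots after flowering. Flowers had 808 FPKM of it, flower buds 522, mature seeds 317.0 and roots before flowering 5.89. The zeros stand beside high values in a library of the same organ, so its ratio rests on the leaf library after flowering alone.

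Loci higher in milk grains reached 5 FPKM in fewer of the other organs than all loci with 5 FPKM in milk grains. Of the 1830, 1186 (64.8%) had at least 5 FPKM in mature seeds, 949 (51.9%) in a flower library, 694 (37.9%) in roots before flowering and 481 (26.3%) in leaves before flowering. Among all 10413 loci that reached this level in milk grains, the shares were 84.4%, 85.4%, 74.6% and 78.4%. The grain loci reached 5 FPKM in none of these organs and stages in 425 cases (23.2%), and in mature seeds alone in 320 cases (17.5%). For all loci with 5 FPKM in the grain, the shares were 6.75% and 3.62%. The grain loci were chosen to be lower in leaves after flowering, which favours low values in leaves before flowering and narrow loci. They were also more abundant in milk grains, with a median of 27.8 FPKM against 15.2 for all 10413.

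Those subgroups carried very different parts of the summed FPKM of the grain. The 320 loci shared with mature seeds alone had medians of 37.5 FPKM at the milk stage and 17.8 at maturity, and took 27.5% of the summed FPKM of milk grains. The 425 loci seen in the milk grain alone were more numerous but lower, with a median of 11.1 FPKM and 5.26% of the sum. Another 364 loci had at least 5 FPKM in the flower, the root, the leaf before flowering and the mature seed. Their median was 89.2 FPKM in milk grains and 10.9 in leaves after flowering, with 28.9 in mature seeds and 23.8 in flower buds, and they took 12.9% of the summed FPKM of the grain. These loci were chosen to be higher in the grain and to reach 5 FPKM in the other organs, so that breadth and that order restate the choice. In leaves after flowering, which did not enter the choice of breadth, 291 of the 364 reached 5 FPKM and 13 were under 1 FPKM. Among all 10413 loci with 5 FPKM in milk grains, 65.5% were this broad, against 19.9% of the grain loci.

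Loci higher in leaves after flowering were also found in fewer organs than all loci with 5 FPKM in leaves after flowering. Of the 4131, 3419 (82.8%) had at least 5 FPKM in leaves before flowering, 2877 (69.6%) in a flower library, 2372 (57.4%) in roots before flowering and 2161 (52.3%) in mature seeds. For all 13305 loci that reached this level in leaves after flowering, the shares were 89.9%, 85.7%, 73.3% and 75.3%. The leaf loci were chosen to be lower in milk grains, which favours low values in mature seeds too. A broad subgroup of 1480 loci (35.8%) reached 5 FPKM in the flower, the root, the earlier leaf and the mature seed, against 61.2% of all 13305. Their median was 45.6 FPKM in leaves after and 39.7 before flowering, 28.2 in flowers, 25.4 in roots before flowering and 15.8 in mature seeds, but 3.67 in milk grains. They took 30.4% of the summed FPKM of the leaf and 2.04% of that of the grain. The milk grain, where they were chosen to be low, had the lowest median of the 8 libraries, and the medians of the other 7 lay between 15.8 and 45.6 FPKM. Loci of the leaf alone were fewer. In 348 cases (8.42%) leaves before flowering were the only other place with 5 FPKM, and in 361 cases (8.74%) there was none, with medians of 13.2 and 8.74 FPKM in leaves after flowering. For all 13305 loci these shares were 4.07% and 3.98%. The library labelled roots after flowering did not enter this rule. In it, 335 of the 348 loci and 264 of the 361 had at least 5 FPKM.

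The leaf loci were also given for the library labelled roots after flowering, where they were at the leaf level. Of the 4131 leaf loci, 94.8% had at least 5 FPKM in it, near the 95.5% of all 13305 loci with that level in leaves after flowering. Their median of 22.6 FPKM was close to the 23.1 FPKM of leaves after flowering and far from the 7.26 FPKM of roots before flowering.

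**Figure D4:**
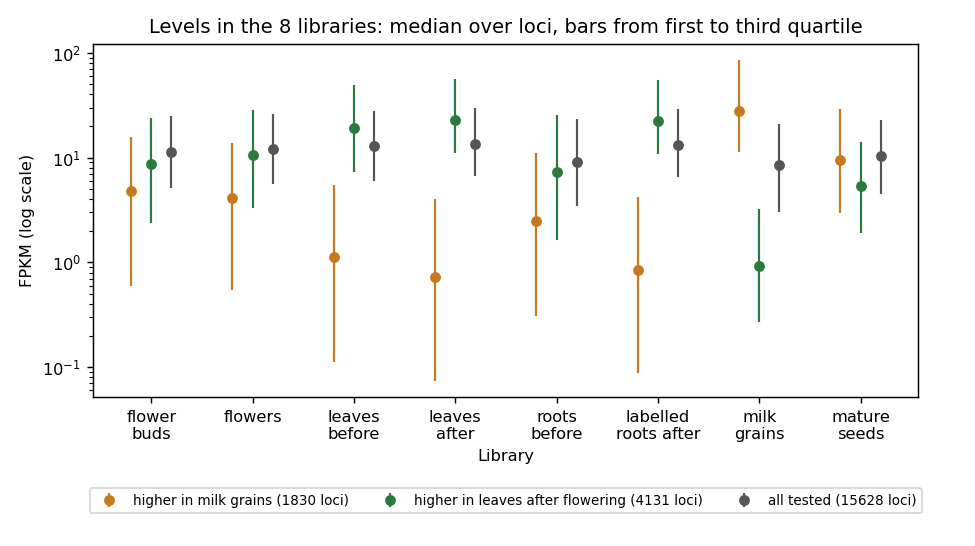
Median FPKM (log scale) in each of the 8 libraries over the 1830 loci higher in milk grains, the 4131 loci higher in leaves after flowering and all 15628 tested loci; bars run from the first to the third quartile over loci. Grain loci fall from 27.8 FPKM at the milk stage to 9.46 at maturity, while leaf loci have 23.1 FPKM in leaves after and 19.0 in leaves before flowering.

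The stability of the groups across stages was described from the levels at the other stage of the same organ, which shares the organ but not the library. The 1830 grain loci had medians of 27.8 FPKM at the milk stage and 9.46 at maturity. In mature seeds 818 of them (44.7%) were at least 4-fold below their milk grain level, 453 (24.8%) were within 2-fold of it and 71 (3.88%) were at least 4-fold above it. Among all 10413 loci with 5 FPKM in milk grains, 10.5% were at least 4-fold lower in mature seeds and 59.9% were within 2-fold. For the leaf loci the median was 23.1 FPKM after and 19.0 before flowering, and 500 (12.1%) were at least 4-fold lower before flowering, 2345 (56.8%) within 2-fold and 83 (2.01%) at least 4-fold higher. Among all 13305 loci with 5 FPKM in leaves after flowering, 4.31% were at least 4-fold lower before flowering and 79.5% were within 2-fold. The stages of the grain were thus further apart than those of the leaf over all loci too, and both groups held more loci that were lower at the other stage than all loci did. Each group was chosen for a high value in the first of these libraries, which favours lower values in the second.

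Mature seeds against leaves before flowering is the other grain and leaf pair, and it shares no library with the first. It is of other stages and is not a replicate. By the same rule 2137 of 16417 loci (13.0%) were higher in mature seeds and 2238 (13.6%) in leaves before flowering. Of the 1830 loci higher in milk grains, 681 (37.2%, 35.0 to 39.5) were also at least 4-fold higher in mature seeds than in leaves before flowering, and these made up 31.9% of the second list. Of the 4131 loci higher in leaves after flowering, 1558 (37.7%, 36.2 to 39.2) were also higher in leaves before flowering, and these made up 69.6% of the second list. The direction alone was shared more often. Of the 1830 grain loci, 1222 had 5 FPKM in either library of the second pair, and 1096 of these (89.7%) were higher in mature seeds than in leaves before flowering, against 46.2% of all loci tested in that pair. Of the 4131 leaf loci, 3519 had that level, and 3088 of these (87.8%) were higher in leaves before flowering than in mature seeds, against 53.8%. Over these loci alone, the recurring shares were 55.7% (52.9 to 58.5) for the grain and 44.3% (42.6 to 45.9) for the leaf, in place of 37.2% and 37.7%. A locus that reached the level in only 1 library of that pair was bound to be higher in it.

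Larger differences recurred more often. Among loci above 0 in both libraries, 25.7% of 1162 grain loci with a log2 ratio of 2 to 4 recurred in the second pair. The share was 53.3% of 321 loci at 4 to 6, 68.2% of 85 at 6 to 8 and 84.5% of 71 at 8 and over. Leaf loci recurred in 29.2% of 2915 cases at sizes of 2 to 4, 56.2% of 865 at 4 to 6, 76.6% of 218 at 6 to 8 and 13 of 13 at 8 and over. Loci under 5 FPKM in both libraries of the second pair could not recur. Without them the shares were 39.0%, 76.0%, 85.3% and 60 of 60 for the grain and 34.8%, 62.8%, 77.3% and 13 of 13 for the leaf. Loci with larger differences were also more abundant. From the smallest to the largest differences, the median level rose from 17.6 to 1419 FPKM in milk grains for grain loci. For leaf loci it rose from 15.7 to 1288 FPKM in leaves after flowering. Size was not separated from level.

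The recurring loci held most of the summed FPKM of their group in the grain. The 681 recurring grain loci took 36.7% of the summed FPKM of milk grains and 20.5% of that of mature seeds. The 1149 others took 18.7% and 4.29%, with medians of 24.4 FPKM at the milk stage and 4.14 at maturity. The 2573 leaf loci that did not recur had 18.2 FPKM in leaves after and 11.1 in leaves before flowering, and their median was 0.953 FPKM in milk grains against 6.44 in mature seeds.

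**Figure D5:**
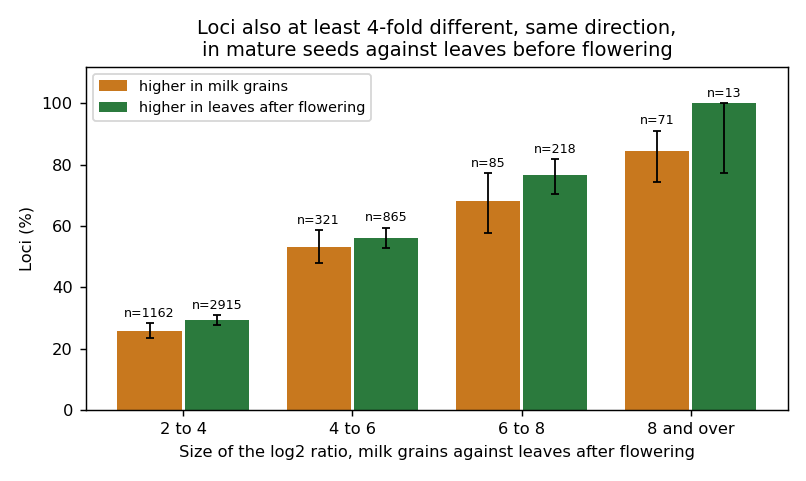
Share of loci (percent) that were also at least 4-fold different in the same direction between mature seeds and leaves before flowering, by the size of their log2 ratio between milk grains and leaves after flowering; lines are 95% Wilson intervals over loci, n is the number of loci, and loci listed at 0 in either library are left out. The share rises from 25.7% to 84.5% for grain loci and from 29.2% to 13 of 13 for leaf loci.

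By position, grain loci were spread over all 12 chromosomes in number but not in abundance. The share of tested loci higher in milk grains lay between 9.80% on chromosome 8 and 13.8% on chromosome 6, near the 11.7% of all loci. Chromosome 7 had 139 of 1255 tested loci (11.1%) higher in milk grains, which is 7.596% of the grain loci, but these held 20.8% of their summed FPKM. All loci of chromosome 7 took 15.0% of the summed FPKM of milk grains and 13.5% in mature seeds, against 8.005% in leaves after and 9.74% before flowering. Leaf loci ranged from 22.9% of the tested loci on chromosome 5 to 30.3% on chromosome 10, around the 26.4% of all loci.

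A few stretches held much of this summed FPKM. Windows of 1 Mb were added after the values were seen and used loci with a position of their own. The window at 6000001 to 7000000 on chromosome 7 held 8.04% of the summed FPKM of milk grains, from 46 loci of which 11 were at least 4-fold higher in the grain and 10 had 1000 FPKM or more. Its loci summed to 49163 FPKM in milk grains, 39744 in mature seeds and 851 in leaves after flowering. The next windows, at 15000001 to 16000000 on chromosomes 5 and 11, held 2.57% and 1.55% of the grain sum. The first of these had 15695 FPKM in milk grains and 15352 at maturity. These near-equal sums came largely from different loci. A run of 7 grain loci in that window had 15297 FPKM in milk grains but 4327 in mature seeds. The second window had 9500 and 1140, so that it was high at the milk stage only. In leaves after flowering the richest window of such loci held 1.13% of the sum. Of its 6527 FPKM, 4746 came from the locus that was as abundant in the grain. The most abundant leaf locus, on chromosome 2, shares its span and was therefore left out. Its 11271 FPKM alone exceeded the sum of that window.

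Neighbouring loci tended to be called together. Among tested loci with a position of their own on the 12 chromosomes, 12.4% were higher in milk grains, and the next tested locus after a grain locus was also a grain locus in 18.6% of 1322 cases (16.6 to 20.8). For leaf loci, 25.7% were called and the next locus was one in 32.7% of 2745 cases (30.9 to 34.5). Grain loci formed 34 runs of at least 3 neighbours with 122 loci, and leaf loci 197 runs with 728 loci. Loci below the level limit, or without a position of their own, can lie between the members of a run. Neighbours can be copies of one gene that share reads or parts of one transcript split in assembly, and neither was tested.

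The longest grain run lay on chromosome 12 (13352465 to 13413223), with 8 loci that summed to 114.7 FPKM in milk grains, 4.83 in leaves after flowering and 4.003 in mature seeds. Flower buds had 10.7 FPKM, so the run was high in the milk grain library alone and modest there. The run on chromosome 5 (15266309 to 15530862) had 7 loci, all listed at 0 in leaves after flowering. They had 31.1 to 5902 FPKM each in milk grains, summing to 15297, and 4327 in mature seeds, with at most 0.0656 FPKM in any of the other libraries. A run of 5 loci on chromosome 11 (15320187 to 15343857) summed to 7482 FPKM in milk grains and 0.984 in leaves after flowering. Mature seeds had 146 FPKM of it, so it was high at the milk stage alone. The other named run of 5 loci, on chromosome 9 (18351686 to 18449725), was of another kind: it had 348.6 FPKM in milk grains, 119 in roots before flowering, 110 in flower buds and 25.1 in leaves after flowering. Of the 4 loci of a run on chromosome 7 (6238910 to 6276821), chosen after its values were seen, XLOC_055776 is the last. They summed to 21334 FPKM in milk grains, 5401 in mature seeds and at most 0.432 in the other libraries.

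Leaf runs were more numerous, among more loci called. The longest had 11 loci on chromosome 7 (1512024 to 1756203), with 245.7 FPKM in leaves after flowering, 95.2 before flowering, 120 in roots before flowering, and 4.55 in the grain. Another of 8 loci on chromosome 4 (5178237 to 5523558) had 230 FPKM after and 39.8 before flowering, 179 in roots before flowering, and 3.24 in the grain. A run of 7 on chromosome 10 (22575211 to 22671877) summed to 1273 FPKM after and 458 before flowering, 452 in roots before flowering and 4.63 in the grain. These 3 runs were higher in the leaf after flowering than before it and were also seen in roots. The run of 7 on chromosome 7 (2136446 to 2225069) went the other way, with 963 FPKM after and 6191 before flowering, 54.8 in roots before flowering, and 14.1 in the grain.

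Loci higher in milk grains occupied shorter spans. Of loci with a position of their own, those higher in the grain had a median span of 2910 bases and those higher in the leaf 3341, against 4191 for loci that were neither. The span includes introns. Spans under 1000 bases made up 14.7% of the grain loci, 7.27% of the leaf loci and 2.77% of the others. The contrast was larger among abundant loci: 40 of 85 (47.1%) of the 100 most abundant grain loci with a position of their own were under 1000 bases, with a median of 1067, and 9 of 79 (11.4%) of the leaf loci, with a median of 2219. FPKM is scaled by length, and whether length moves the ratio was not tested.

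The same rule was applied to milk grains and the other organs. Against leaves before flowering it gave 1794 loci higher in milk grains and 4083 lower. Roots before flowering gave 1807 and 4231, and flowers 1347 and 4704. These comparisons share the milk grain library, so they are set side by side only. After median-of-ratios scaling the numbers were 2398 and 3434 against leaves before flowering, 2109 and 4399 against roots before flowering, and 1943 and 3737 against flowers.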

How the data were processed

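Poly(A) RNA of 8 rice samples was sequenced from both ends without keeping the strand, per the labels, so where loci overlap on opposite strands a read cannot be given to either. The deposited values are FPKM per locus, made by the authors. Per the submitters' processing notes the tools were TopHat, Cufflinks and Cuffdiff; versions and settings: not given in the sources used here. Every locus in the table had at least 1.00001 FPKM in some library, and 10295 of the 31187 loci share a position with others. The summed FPKM per library lay between 569819 and 611306. The read depth is unknown. Among 1605 loci above 0 and below 0.15 FPKM in both milk grains and leaves after flowering, no common step of their ratios was found (the fullest bin, 0.02 wide on the log2 scale, held 1.12%), so whole reads were not recovered and single values have no stated precision.

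Ratios used a pseudocount of 1 FPKM, a minimum of 5 FPKM in the higher library and a 4-fold limit; the level limit was applied to the scaled values where a scaling was used. The computation was tested on simulated data. The named loci are, per direction, the one with the largest ratio at 50 FPKM or more and the most abundant one (the next if it is the same), with a position of their own and above 0 in both libraries. Up to 4 longest runs per direction are given. The comparison, the groups and the rules were chosen with earlier results of these data known. Alternatives were the pseudocount, level limit, fold, scaling, shared positions and zeros. Python 3.11.15, pandas 2.3.3, numpy 2.4.6, scipy 1.17.1 and matplotlib 3.10.9 were used.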

Additional observations from a re-analysis of the deposited data

Results flagged for a closer look

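The grain and leaf contrast ran in opposite directions in its 2 pairs of libraries at a small number of loci. No test of that difference was possible with 1 library in each group, so it was not tested. Of the 1830 loci at least 4-fold higher in milk grains than in leaves after flowering, 14 were at least 4-fold lower in mature seeds than in leaves before flowering. Over all loci tested in the second pair, 13.6% were lower in mature seeds. The median of these loci was 53.0 FPKM in milk grains and 4.49 in leaves after flowering, then 7.01 in mature seeds and 43.5 in leaves before flowering. Of the 4131 loci lower in milk grains than in leaves after flowering, 56 were higher in mature seeds than in leaves before flowering. Over all loci tested in the second pair, 13.0% were higher in mature seeds. The median of these 56 loci was 0.729 FPKM in milk grains, 19.3 in leaves after flowering, 50.55 in mature seeds and 5.69 in leaves before flowering. It was 33.7 FPKM in flowers and 28.4 in flower buds. Apart from the flower and bud values, the medians of both groups restate how the loci were chosen.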

How the results depend on the processing

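No paired analysis was possible because each group held 1 library. The median log2 ratio, the only result with a sign, stayed negative under the 9 alternatives tried. Under each of them more loci were higher in leaves after flowering than in milk grains. The count of loci higher in milk grains, 1830 as reported, was 1086 with at least 20 FPKM and 3172 at 2-fold, and stayed within 1.5 times under the other 7 alternatives. The count higher in leaves after flowering, 4131, was 2271 with at least 20 FPKM, 6595 at 2-fold and 2751 among loci with a position of their own, where fewer loci were counted. The median log2 ratio, -0.63 as reported (-0.67 to -0.60 over loci), was -0.059 after median-of-ratios scaling, -0.11 after upper-quartile scaling and -0.33 with equal sums over all but the top 100 loci. It was -0.69 with a pseudocount of 0.1, -0.54 at 1 FPKM, -0.68 at 20 FPKM and -0.54 for loci with a position of their own. The share of grain loci that recurred in mature seeds against leaves before flowering, 37.2%, was 28.7% at 20 FPKM, 32.5% with median-of-ratios, 34.1% with upper-quartile and 34.9% with equal-sum scaling. The leaf share, 37.7%, was 39.7% with a pseudocount of 0.1, 40.6% at 20 FPKM and 49.4% at 2-fold.

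The share of the summed FPKM of milk grains in loci higher there, 55.4%, was 55.9% with a pseudocount of 0.1, 55.5% at 1 FPKM, 54.1% at 20 FPKM and 66.2% at 2-fold. With the median-of-ratios, upper-quartile and equal-sum scalings it was 59.8%, 59.1% and 57.6%. It was 58.2% for loci with a position of their own and 50.1% without loci listed at 0. For leaves after flowering the share, 52.6%, was in the same order 53.8%, 52.8%, 49.1% and 65.0%, then 47.1%, 47.9% and 49.8%, and then 52.0% and 51.1%. Without loci listed at 0 the grain share of 50.1% was below the leaf share of 51.1%, whereas as reported the grain share was the larger. The cause of these shifts was not tested. The unknown read depth leaves the smallest detectable level undefined, and with 1 library per group none of these differences can be set against a replicate error.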
